A study of Homo sapiens with 12 samples.

Results

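AGO2 knockout HCT116 cells were compared with their parental line across all 15074 genes of the authors' deposited table for this comparison, with the 746 genes of chromosome 7 described apart from the 14328 others. HCT116 is an established human colorectal carcinoma cell line. The comparison uses 6 of the 12 libraries of the series: 3 of the parental genotype, which carries its own AGO2, and 3 of the AGO2 knockout genotype. The labels name no drug or transgene in either group. The other 6 libraries are from knockout cells given back an FH-tagged AGO2, wild-type (FH-WT) or 5xA mutant, and the series used knockout and parental cells as controls for those lines in a study of AGO2 phosphorylation. Wells of 500000 cells, in triplicate for each group, were harvested at 48 h. Stranded libraries of total RNA without ribosomal RNA were read on an Illumina NextSeq. The table, the source of every fold change below unless another is named, gives 1 log2 fold change per gene, knockout over parental, so values per library and the depth of each library were not analysed here. The knockout is described as 1 line, and the sources used here do not give where in the gene its edit lies. The p-values therefore measure the spread between wells of 1 line per group, and loss of AGO2 cannot be told apart from any other difference that has arisen between these 2 lines.

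AGO2 is an Argonaute protein. It holds a microRNA, which pairs with sites in the 3′ untranslated region (3′ UTR) of messenger RNAs mainly through its seed, and it recruits GW182 (TNRC6) proteins and deadenylases that lower the stability and translation of the bound message. It is also the Argonaute known for cutting RNA. Human cells carry other Argonautes that can bind microRNAs as well, and phosphorylation by casein kinase 1 and its removal by protein phosphatase 6 with ANKRD52 have been described as a cycle on AGO2.

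Mature microRNAs were not measured in these libraries. Their sequences set the sites that were counted in 3′ UTRs, so those used most below are given here from RefSeq (GRCh38.p14), written 5′ to 3′ in RNA letters with the seed, bases 2 to 8, in capitals. The first 5 come from the related clusters of miR-17 and miR-106b, of which the miR-106b cluster lies on chromosome 7. Then come the miR-19 and let-7 families, 3 further microRNAs encoded on chromosome 7, and miR-122, known from liver and shown as a family of another tissue.
hsa-miR-17-5p: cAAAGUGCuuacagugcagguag
hsa-miR-93-5p: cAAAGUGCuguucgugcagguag
hsa-miR-106b-5p: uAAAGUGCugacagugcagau
hsa-miR-25-3p: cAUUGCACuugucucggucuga
hsa-miR-92a-3p: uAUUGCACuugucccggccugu
hsa-miR-19b-3p: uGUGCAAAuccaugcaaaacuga
hsa-let-7a-5p: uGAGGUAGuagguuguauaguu
hsa-miR-29a-3p: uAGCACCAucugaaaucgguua
hsa-miR-148a-3p: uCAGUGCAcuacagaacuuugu
hsa-miR-182-5p: uUUGGCAAugguagaacucacacu
hsa-miR-122-5p: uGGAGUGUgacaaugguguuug

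The sequences of miR-17, miR-93 and miR-106b share 1 seed, AAAGUGC, and those of miR-25 and miR-92a share another, AUUGCAC. On GRCh38, miR-93, miR-106b and miR-25 lie on the minus strand at chr7:100093815-100093837, chr7:100094043-100094063 and chr7:100093571-100093592, inside MCM7. The left part of chromosome 7 holds miR-148a, at chr7:25949922-25949943 on the minus strand. Further right on the chromosome are miR-182, at chr7:129770447-129770470, and miR-29a, at chr7:130876748-130876769, both on the minus strand.

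Across all genes the median log2 fold change in the authors' deposited table was -0.01, with quartiles of -0.25 and 0.26. A gene was called where the deposited false discovery rate (FDR, edgeR) was under 0.05. On that rule 3499 genes were higher in the knockout (23.2% of those tested) and 3196 were lower (21.2%), or 44.4% in all. Most called changes were small. A change of at least 2-fold was called for 4.64% of genes, with 441 rises (2.93%) and 258 falls (1.71%), of at least 4-fold for 49 rises and 27 falls, and of at least 8-fold for 10 rises and 14 falls. The standard error (SE) printed below with ± was derived from the deposited likelihood ratio score and fold change. Its median was 0.12 over all genes, 0.25 for genes under a mean of 1 log2 CPM (counts scaled to library size), and 0.08 for genes at 7 or more. Levels in CPM for each line were computed from the deposited mean and fold changes and are approximate, with no error of their own.

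AGO2 RNA itself fell by 0.35 ± 0.07 (FDR 1.4e-06, edgeR), from a fitted 205 CPM in parental to 161 CPM in the knockout. AGO2 lies at chr8:140520156-140635619 on GRCh38. A targeted coding change need not remove the transcript, so this RNA level does not check the loss of the protein.

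Outside chromosome 7 the median was -0.02 (quartiles -0.25 and 0.24), with 42.9% of genes called, 3166 higher (22.1%) and 2985 lower (20.8%). At 2-fold the called genes outside chromosome 7 were 3.78%, with 373 rises (2.6%) and 168 falls (1.17%). The plot of change against expression shows the narrow cloud of these genes, with chromosome 7 genes above and below it.

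**Figure D1:**
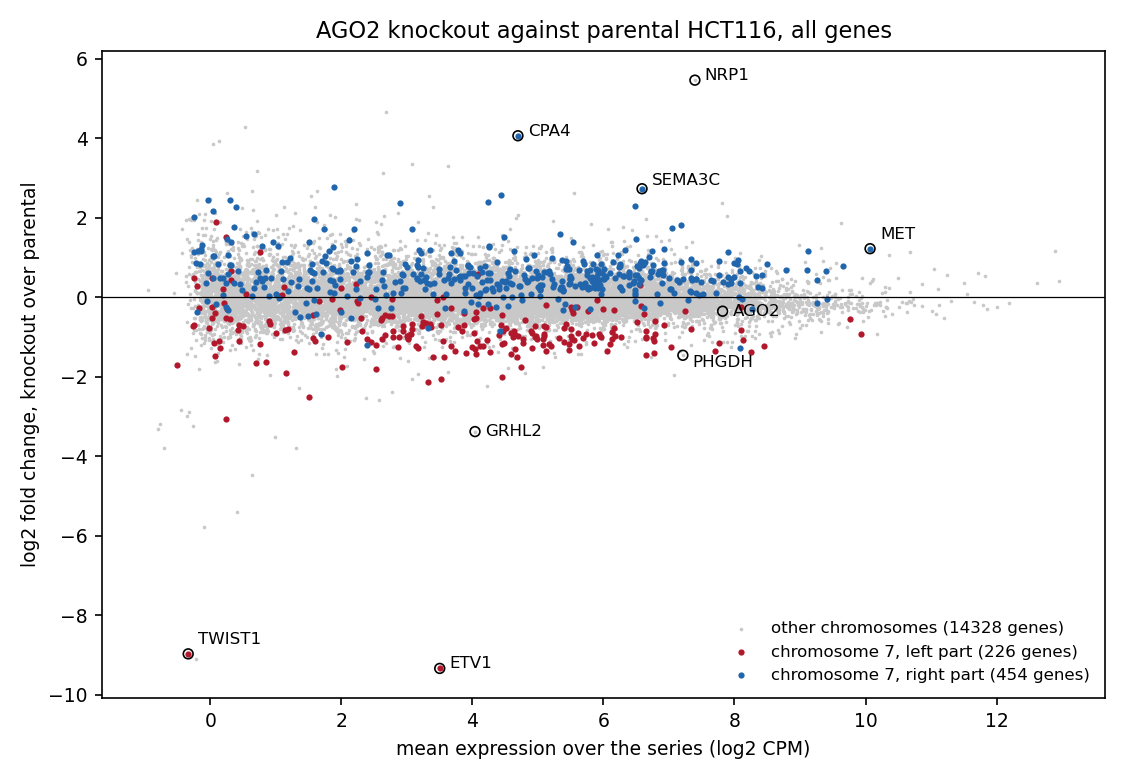
Each point is 1 gene, with the mean expression over the series in log2 CPM on the x axis and the deposited log2 fold change of knockout over parental on the y axis. Grey points are the 14328 genes outside chromosome 7, and the 66 genes between 50 and 70 Mb on chromosome 7 are not drawn; red points (226 genes, start of the chromosome to 50 Mb) sit mostly below 0, blue points (454 genes, beyond 70 Mb) mostly above 0, and rings mark the genes named.

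The 12 strongest rises by score outside chromosome 7 included a guidance co-receptor, matrix genes and a repressor of epithelial genes. NRP1, a co-receptor for semaphorins and VEGF at chr10:33177492-33336262, rose by 5.46 ± 0.10, from a fitted 5.80 to 255 CPM. NAV3, a neuron navigator family protein, rose by 2.62 ± 0.11 (10.2 to 62.6 CPM), and AHNAK2, a giant scaffold protein, by 2.38 ± 0.10 (65.0 to 338 CPM). ZEB1, a transcriptional repressor of epithelial genes, rose by 2.0 ± 0.10, from 8.03 to 32.1 CPM. The group also held the laminin chain LAMA4 (3.31 ± 0.14), the collagen COL17A1 (3.35 ± 0.16), the lysyl oxidase LOXL4 (3.13 ± 0.13), the ubiquitin ligase SH3RF2 (2.06 ± 0.09), the clotting inhibitor TFPI (1.71 ± 0.08) and the lipid synthesis enzyme GPAT3 (1.77 ± 0.08). CYP24A1, which breaks down vitamin D, rose by 1.4 ± 0.07 (76.5 to 201 CPM), and so did NT5E (CD73), by 1.4 ± 0.07 (46.8 to 124 CPM).

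The strongest falls included a regulator of epithelial identity and several genes of polarised membranes. GRHL2, a transcription factor that maintains epithelial genes, at chr8:101492432-101669726, fell by 3.38 ± 0.12, from 51.8 to 4.98 CPM. The phospholipid flippase ATP8B1 fell by 2.24 ± 0.10 (45.3 to 9.58 CPM). MAL2, a protein of apical transport, fell by 1.97 ± 0.09, from 352 to 89.9 CPM, and AP1M2, the epithelial clathrin adaptor subunit, by 1.76 ± 0.09 (69.5 to 20.5 CPM). PHGDH, the first enzyme of serine synthesis, fell by 1.46 ± 0.07 (248 to 90.3 CPM), and SQLE, of sterol synthesis, by 1.26 ± 0.07 (134 to 55.8 CPM). The remaining falls by this rule were CSTA (-3.79 ± 0.18), GALNT3 (-2.58 ± 0.13), ATP2C2 (-2.54 ± 0.14), ANK3 (-2.05 ± 0.12), MTMR1 (-1.77 ± 0.10) and ZNF704 (-1.41 ± 0.08) in the authors' deposited table.

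Ranked by the change in fitted CPM, again outside chromosome 7 and the mitochondrial genome, other genes came first. The 8 rises were the nuclear long non-coding RNA MALAT1 (0.41 ± 0.12, 6278 to 8339 CPM), the scaffold AKAP12 (0.36 ± 0.09), the cadherin FAT1 (0.61 ± 0.08), gamma-actin ACTG1 (0.54 ± 0.11), the signal recognition particle RNA gene RN7SL3 (0.70 ± 0.11), AHNAK (1.07 ± 0.11), the phosphatase PTP4A1 (1.86 ± 0.13, 227 to 825 CPM) and the cytoskeletal linker MACF1 (1.23 ± 0.09, 365 to 860 CPM). RN7SL3 has near-identical copies, so its value is uncertain. The 8 falls were NCL (-0.52 ± 0.15), the linker histones H1-4 (-0.91 ± 0.26) and H1-2 (-0.74 ± 0.13), HSP90AA1 (-0.30 ± 0.12), KITLG (-0.42 ± 0.10), PDP1 (-0.35 ± 0.08), CENPF (-0.59 ± 0.09) and PTMA (-0.47 ± 0.16). Other than PTP4A1, AHNAK and MACF1, these abundant genes changed by less than 2-fold.

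For some called genes the fitted level of 1 line lay under 0.1 CPM, so a fold change fitted for them varies with the prior count and sets no bound. ETV1, an ETS transcription factor, was fitted at 44.9 CPM in parental and 0.0696 CPM in the knockout. The zinc finger gene ZNF850 went from 3.55 to 0.0646 CPM, and TWIST1, a mesenchymal transcription factor, from 3.14 to 0.00627 CPM. In the other direction, NOS1 went from 0.0847 to 1.64 CPM and EYS from 0.0585 to 0.890 CPM. ETV1 and TWIST1 are both on the left part of chromosome 7.

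On chromosome 7 the change followed position. The left part, which ends at 50 Mb, held 226 measured genes with a median of -0.90 (quartiles -1.15 and -0.49). In it 84.5% of genes were called, 184 lower (81.4%) and 7 higher (3.1%), and 207 of 226 lay below 0. The right part, beyond 70 Mb, held 454 genes with a median of 0.49 (quartiles 0.25 and 0.78). There 72.5% were called, 317 higher (69.8%) and 12 lower (2.64%), and 409 of 454 lay above 0. The 66 genes between these limits had a median of -0.04 (quartiles -0.28 and 0.18), with 9 higher and 15 lower. Every other nuclear chromosome measured had a median between -0.10 (chromosome 19) and 0.03 (chromosome 18), and the 20 genes of the mitochondrial genome had one of 0.45, with 2 higher and 2 lower. Genes are not replicates and neighbours may move together, so no test was made across them.

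**Figure D2:**
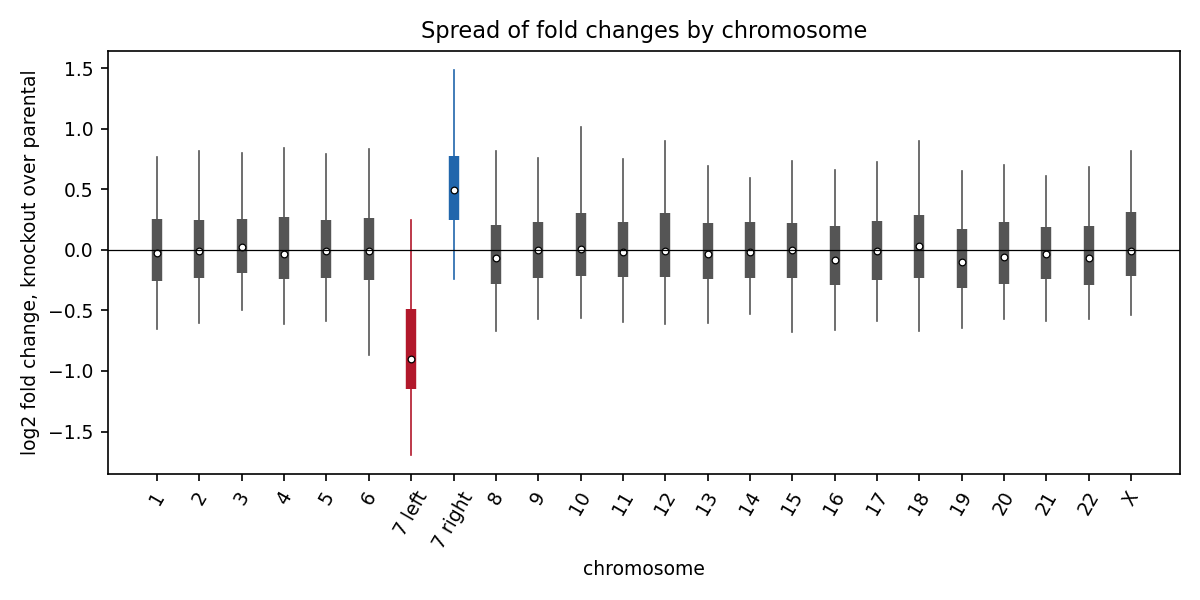
Log2 fold change of knockout over parental for the genes of each chromosome, with chromosome 7 split into its left and right parts; the y axis is the deposited log2 fold change, the circle marks the median, the thick bar the quartiles and the thin line the 5th to 95th percentile. The left part of chromosome 7 (median -0.90) and the right part (0.49) stand below and above the other chromosomes, whose medians run from -0.10 to 0.03.

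Counted by size, 39.8% of the left-part genes changed at least 2-fold, 87 of them lower (38.5%) and 3 higher (1.33%). In the right part 14.5% changed by as much, 65 higher (14.3%) and 1 lower (0.22%). Together the left-part genes took 1.41% of the fitted parental CPM over the table and 0.786% in the knockout. The right-part genes took 2.2% and 3.21%. The displacement was present at every level of expression: over genes with a mean log2 CPM under 1, 1 to 3, 3 to 5, 5 to 7 and at least 7, the left medians were -0.59, -0.83, -0.94, -0.95 and -1.0. The right medians over the same classes were 0.66, 0.49, 0.47, 0.51 and 0.45. The least expressed genes had the median nearest 0 in the left part and the one farthest from 0 in the right part.

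In bins of 10 Mb, the left medians ran from -1.03 in the first bin to -0.67 between 20 and 30 Mb and -0.88 between 40 and 50 Mb. The bin from 50 to 60 Mb had a median of -0.26 and that from 60 to 70 Mb a median of 0.06. From 70 Mb on, every bin had a median between 0.40 and 0.78, the highest between 110 and 120 Mb. The change of sign came near the centromere. A running median over 21 genes crossed 0 between SAPCD2P2, starting at position 57424503, and GABPAP, at 63893286, both pseudogenes, and was below 0 again as far as ZNF117 (64971776). Over protein-coding genes alone, an alternative chosen after seeing the data, it crossed between ERV3-1 (64990809) and ZNF92 (65373799).

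**Figure D3:**
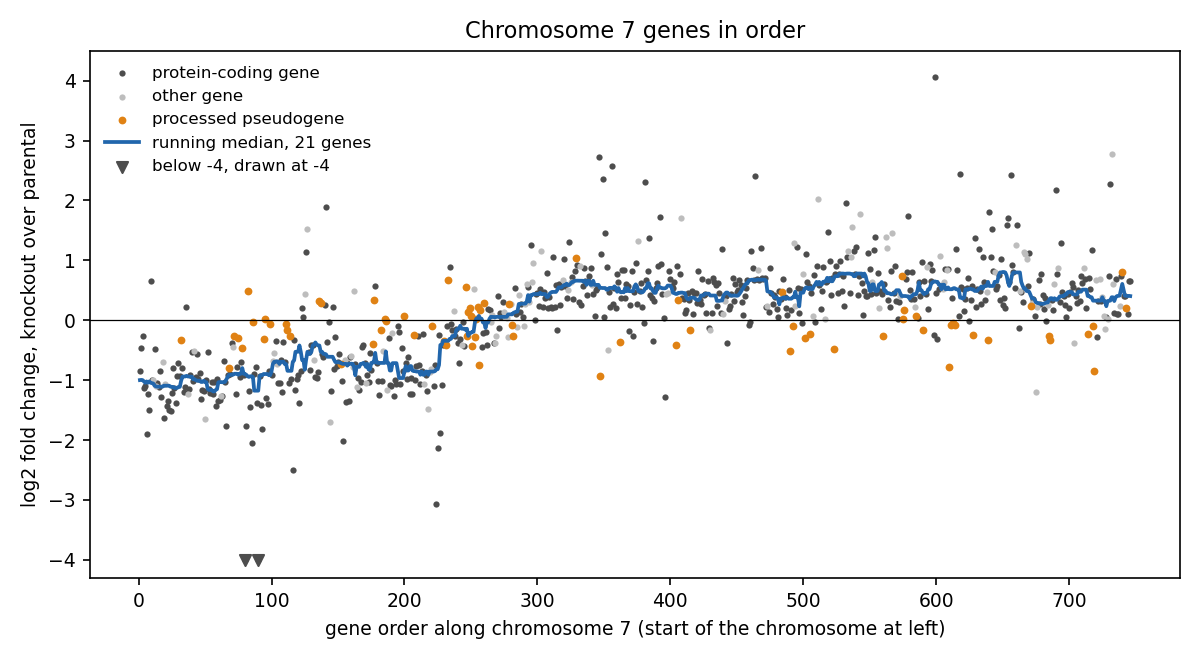
The 746 measured genes of chromosome 7 in their order along the chromosome (x axis) against the deposited log2 fold change of knockout over parental (y axis); the line is a running median of 21 genes. The line lies near -1 at the start, stays near 0 over a stretch in the middle and lies near 0.5 across the right part, while processed pseudogenes in orange lie closer to 0 in both parts.

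The left edge of the transition could be followed gene by gene among coding genes. TNS3, HUS1 and UPP1, near the left limit, fell by 1.09 ± 0.13, 0.75 ± 0.10 and 2.12 ± 0.16. Past it, FIGNL1 (starting at 50444128) fell by 1.89 ± 0.10, GRB10 (50590063) by 1.08 ± 0.09 and COBL (51016212) by 0.41 ± 0.10. SEC61G (-0.09) and LANCL2 (-0.06) were not called. Between those 2 lies EGFR (55019021), the epidermal growth factor receptor, which rose by 0.90 ± 0.10, from 62.6 to 116 CPM. Among the coding genes between LANCL2 and the centromere, VOPP1, ZNF713, NIPSNAP2 and SUMF2 were not called (-0.16, -0.26, -0.14 and -0.04), and MRPS17 (-0.38), PSPH (-0.72 ± 0.09), CCT6A (-0.31) and CHCHD2 (-0.43 ± 0.09) fell. Just right of the centromere, ZNF680 (-0.44 ± 0.11), ZNF107 (-0.21), ZNF138 (-0.19), ZNF273 (-0.41 ± 0.09) and ZNF92 (-0.37 ± 0.07) also fell. Among them, ZNF117 (0.18) and ERV3-1 (0.17) were not called. Further right, VKORC1L1 (0.41 ± 0.08), KCTD7 (0.54 ± 0.13) and TPST1 (0.30 ± 0.09) were higher, while GUSB (-0.13), CRCP (0.06) and TYW1 (0.06) were not called. In the right part BAZ1B (0.44 ± 0.10) and STX1A (0.78 ± 0.15) were higher, while NSUN5 (0.01) was not called.

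Processed pseudogenes, which are copies of messenger RNAs inserted elsewhere and whose reads can come from their parent genes, did not share the displacement. Their median was -0.12 in the left part (24 genes, 1 higher and 4 lower), -0.16 in the right part (32 genes, 3 higher and 6 lower) and -0.18 on other chromosomes (1350 genes, 76 higher and 279 lower). Protein-coding genes had medians of -0.96 on the left (173 genes, 5 higher and 158 lower), 0.51 on the right (356 genes, 270 higher and 5 lower) and -0.00 elsewhere (11237 genes, 2790 higher and 2418 lower). In the right part, 23 antisense genes had a median of 0.64 (13 higher, 1 lower) and 14 long intergenic RNAs one of 0.59 (9 higher, 0 lower). The sources used here do not give whether reads were counted by strand, and an antisense gene and its partner cannot be told apart.

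Single genes went well beyond the median of their part. On the left, besides ETV1, the largest called falls among genes with a mean log2 CPM of at least 1 were GSDME, a gasdermin that forms membrane pores (chr7:24698351-24758113, -2.50 ± 0.19, 6.99 to 1.23 CPM), UPP1, uridine phosphorylase (-2.12 ± 0.16), the tetraspanin TSPAN13 (-2.04 ± 0.20, 26.1 to 6.34 CPM), GGCT of glutathione turnover (-2.01 ± 0.10, 49.7 to 12.4 CPM) and ADAP1 (-1.90 ± 0.29). Among abundant genes of the left part, the splicing protein gene HNRNPA2B1 fell by 0.92 ± 0.14 (1394 to 737 CPM), CBX3, a heterochromatin protein, by 1.39 ± 0.10, EIF3B, a translation initiation factor, by 1.22 ± 0.08 (597 to 256 CPM) and beta-actin ACTB by 0.56 ± 0.09 (1101 to 749 CPM). Above the same minimum the only called rises there were EPDR1 (0.58 ± 0.11), the pseudogene EIF4HP1 (0.32 ± 0.09) and SKAP2 (0.21 ± 0.08), and the left-part rises of at least 2-fold were all in genes under it.

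On the right, CPA4, a carboxypeptidase at chr7:130293134-130324180, rose by 4.06 ± 0.13, from 3.53 to 58.9 CPM. SEMA3C, a secreted semaphorin whose receptors include neuropilins (chr7:80742538-80922359), rose by 2.73 ± 0.08, from 20.9 to 139 CPM, and SEMA3E, of the same family, by 2.36 ± 0.14 (2.15 to 11.1 CPM). ABCB1, the multidrug efflux pump (chr7:87503633-87713323), rose by 2.57 ± 0.12 (5.16 to 30.7 CPM). The long intergenic RNA ENSG00000204876 rose by 2.77 ± 0.19. Of the abundant genes, the hepatocyte growth factor receptor MET (chr7:116672390-116798386) rose by 1.22 ± 0.08 (589 to 1372 CPM), and the caveolins CAV1 by 0.78 ± 0.09 (568 to 975 CPM) and CAV2 by 1.16 ± 0.12 (294 to 657 CPM). The 3 largest falls on the right were asparagine synthetase ASNS (chr7:97852118-97872542, -1.29 ± 0.09, 404 to 166 CPM) and the pseudogenes MTHFD2P5 (-0.94 ± 0.27) and SEPTIN7P6 (-0.84 ± 0.18).

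Elsewhere in the genome, runs of neighbouring genes lay closer to 0. Medians over windows of 25 successive genes on other chromosomes, 13729 in number, ran from -0.88 to 0.36, with a 1st to 99th percentile range of -0.28 to 0.24. The lowest of these, on chromosome 6 from 26596952 to 27893843 (ABT1 to H2BC17), spans a histone gene cluster, and 23 of its 25 genes lay below 0. Next lowest by chromosome was chromosome 19 from 51964343 to 53214522 (ZNF350 to ZNF818P), a zinc finger cluster with a median of -0.39 and 21 of 25 below 0. The highest windows, both at 0.36, were on chromosome 5 (90529344 to 97037515, ADGRV1 to LNPEP) and chromosome 17 (48088678 to 49362473). On chromosome 7 the windows ran from -1.15 (5426277 to 7718607, 25 of 25 below 0) to 0.80 (139340359 to 143391111, 24 of 25 above 0).

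Gene classes outside chromosome 7 had unlike medians, to be read against 22.1% higher and 20.8% lower over all genes there. Small nuclear RNA genes had a median of -0.58 (30 genes, 1 higher and 17 lower) and small nucleolar RNA genes one of -0.30 (58 genes, 0 higher and 14 lower). Transcripts of the TEC class, which await experimental testing (112 genes, median 0.21, 31 higher and 3 lower) and sense-intronic RNAs (112 genes, 0.15, 19 higher and 6 lower) lay on the other side. Long intergenic RNAs had a median of 0.06 (430 genes, 99 higher and 71 lower, or 23% and 16.5%). The share of small nucleolar RNA genes lower, 24.1%, was near that over all genes, and the share of sense-intronic RNAs higher, 17%, was below it. Many of these small RNA genes have near-identical copies, so their single values are uncertain.

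The machinery of microRNA silencing came first among the gene lists. All 6 other Argonaute and GW182 genes rose, each by a modest amount: AGO4 by 0.59 ± 0.11, AGO3 by 0.41 ± 0.07 and AGO1 by 0.26, and TNRC6B, TNRC6C and TNRC6A by 0.48 ± 0.08, 0.43 and 0.29, giving a list median of 0.41 with AGO2 included, against -0.01 for all genes. Among 23 measured genes of microRNA processing and turnover, 4 rose and 5 fell (median -0.08). These shares, 17.4% and 21.7%, were not far from the 23.2% and 21.2% over all genes. DICER1, which cuts precursors to mature microRNAs, rose by 0.55 ± 0.08 (188 to 276 CPM), ZSWIM8, a ubiquitin ligase adaptor for Argonautes bound by certain targets, by 0.41 ± 0.10, and the uridylating enzymes TUT4 and TUT7 by 0.36 and 0.31. DGCR8, the partner of DROSHA, fell by 0.34 ± 0.07, and the chaperone HSP90AA1 was among the other falls.

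For the AGO2 phosphorylation cycle, 5 of 13 genes of protein phosphatase 6 and casein kinase 1 rose and 1 fell (median 0.19). These were 38.5% and 7.69%, against 23.2% and 21.2% over all genes. ANKRD52, the phosphatase's regulatory subunit, rose by 1.15 ± 0.13, from 29.9 to 66.4 CPM, and the catalytic subunit PPP6C by 0.35 ± 0.08. The kinases CSNK1G3 (0.37), CSNK1D (0.26) and CSNK1G1 (0.23) rose, and PPP6R3 fell by 0.19. Downstream, 10 of 27 genes of deadenylation and decapping rose and 3 fell (37% and 11.1%, median 0.20). The deadenylase adaptor TOB1 rose by 0.87 ± 0.12 and the exonuclease XRN1 by 0.48 ± 0.08, while the deadenylase subunit PAN2 fell by 0.63 ± 0.10.

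Seed matches were counted next, in the 10469 protein-coding genes outside chromosome 7 with a 3′ UTR and a mean log2 CPM of at least 1. Their median was -0.01, with 25% higher and 21.8% lower, and their median 3′ UTR was 1178 bases long. A match was the 7-letter reverse complement of the seed on the sense strand, found at least once. The letters were TTTGCAC for miR-19 (in 14.7% of these 3′ UTRs), GTGCAAT for miR-25, miR-32 and miR-92 (11.5%), TTGCACT for miR-130 and miR-301 (15.6%), GCACTTT for miR-17, miR-20, miR-93 and miR-106 (23.6%) and CTACCTC for let-7 (10.5%). Several of these share the letters TGCA or GCAC, so their sites can overlap. A match describes letters and shows no binding.

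In each of the 31 microRNA families with a sequence, genes with a match had a higher median than genes without, by 0.055 (miR-223) to 0.142 (miR-19). For miR-19, the 1536 genes with a match had a median of 0.11 and the others one of -0.03. Of those with a match 37.3% were higher and 15.5% lower, against 22.9% and 22.9% of those without. The miR-25 family came next (0.125, 1209 genes), then miR-130 (0.119, 1630 genes) and miR-17 (0.106, 2475 genes, of which 34.5% were higher and 18.5% lower). The 6 families known mainly from other tissues also lay above 0: 0.106 for miR-9 of the nervous system, 0.101 for miR-122 of liver, 0.093 for miR-1 of muscle, 0.086 for miR-142 of blood cells, 0.086 for miR-208 of heart and, lowest of all 31, 0.055 for miR-223 of blood cells. The let-7 difference was 0.077 and that of miR-21 was 0.074.

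Genes with long 3′ UTRs hold more matches of any kind, and length moved with the fold change. With the genes split into 5 equal classes by 3′ UTR length, from shortest to longest, the median went from -0.11 to 0.12 and the share of genes higher from 15.6% to 39.2%. The rank correlation across these genes, which share libraries and are not independent, was 0.21. It was 0.27 for the span of the gene on the chromosome, with medians from -0.13 in the shortest class to 0.17 in the longest, 0.23 for coding length and -0.01 for GC content. With the difference taken within each class of 3′ UTR length, an alternative chosen after seeing the data, miR-19 gave 0.076 and lay above 0 in 5 of 5 classes. Other families above 0 in 5 of 5 classes were miR-17, miR-24, miR-30, miR-34 and miR-130, and from other tissues miR-1, miR-9 and miR-122. Classes with few matching genes were left out, so some families had fewer classes. Of these, miR-25 and miR-142 lay above 0 in 4 of 4. The miR-25 family then gave 0.049, miR-130 0.047, miR-34 0.046, miR-122 0.045, miR-17 0.038 and let-7 0.0086, and 3 families fell below 0.

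**Figure D4:**
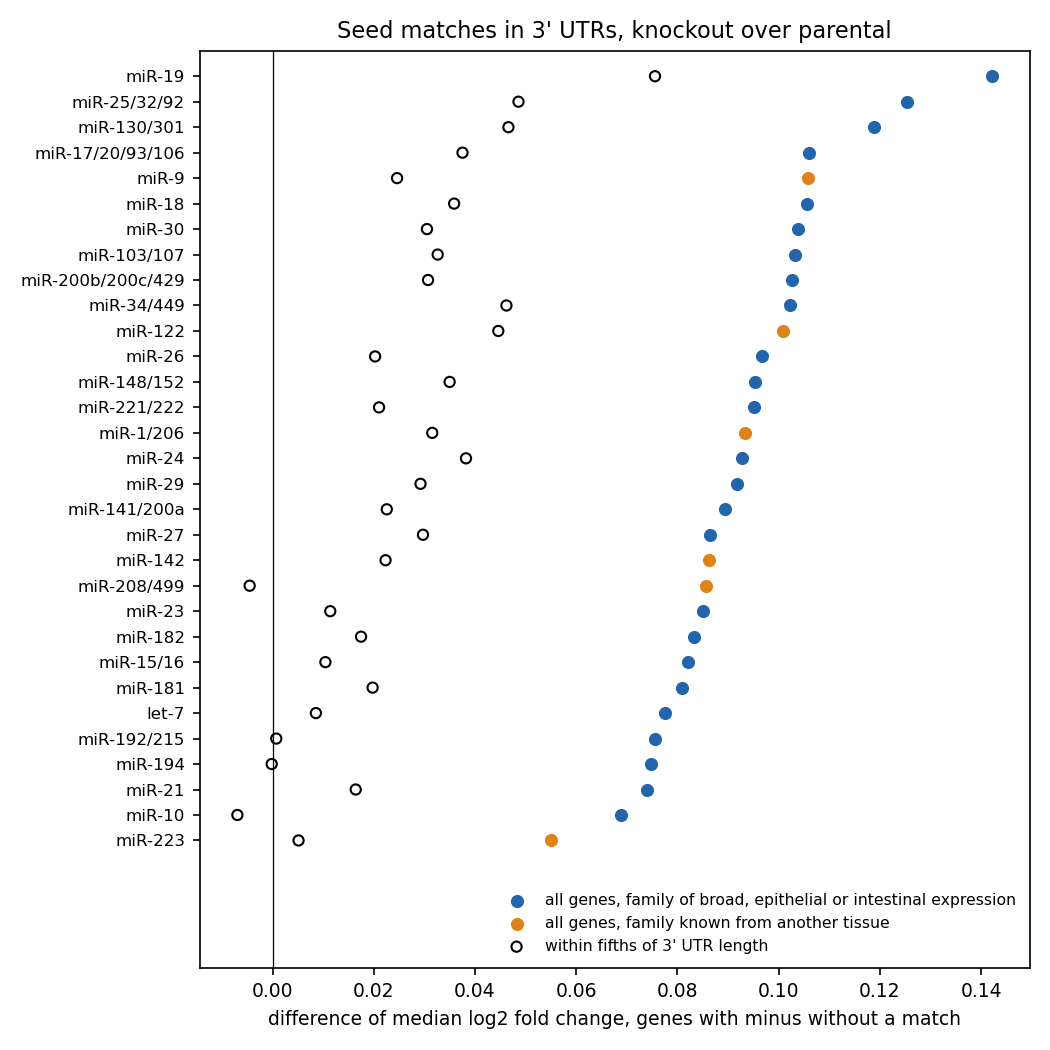
For each microRNA family (y axis), the difference in median log2 fold change of knockout over parental between genes with and without a seed match in their 3′ UTR (x axis). Filled points use all 10469 genes, orange where the family is known from another tissue. Open circles are taken within 5 equal classes of 3′ UTR length, leaving out classes with few matching genes. All filled points lie between 0.055 and 0.142, and the open circles lie closer to 0 in each family.

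By number of sites, genes with 0, 1, 2 and at least 3 matches to miR-19 had medians of -0.03, 0.10, 0.14 and 0.38, over 8933, 1276, 218 and 42 genes. Of the 42, 31 were higher and 1 lower (73.8% and 2.38%), where the longest 3′ UTR class had 39.2% higher and 15.6% lower. These steps were not taken within classes of 3′ UTR length. For miR-17 the same steps gave -0.03, 0.07, 0.10 and 0.05, so its median did not climb further at 3 sites or more. Families of other tissues climbed too: -0.02, 0.07, 0.10 and 0.20 for miR-1 and -0.02, 0.07, 0.12 and 0.17 for miR-9. For miR-122 the steps were uneven, at -0.02, 0.09, 0.05 and 0.14. Among 24 targets known for the miR-17 and miR-20 seed, 14 rose and 2 fell (median 0.42). These were 58.3% and 8.33%, against 23.2% and 21.2% over all genes. The stress gene TP53INP1 rose by 1.84 ± 0.11 (24.5 to 87.9 CPM), CDKN1A, the cyclin-dependent kinase inhibitor p21, by 2.04 ± 0.11 (84.6 to 348 CPM), ZNFX1 by 0.80 ± 0.07 and STAT3 by 0.73 ± 0.07, while E2F1 fell by 0.36 and RBL1 by 0.32. Of 21 let-7 targets 8 rose and 4 fell (median 0.07), or 38.1% and 19%. The falls were near the share over all genes, and the rises near the 39.2% of the longest 3′ UTR class. HMGA2, a chromatin protein, rose by 0.93 ± 0.08 (245 to 468 CPM) and MYC fell by 0.60 ± 0.12 (478 to 315 CPM).

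Transcripts that host the microRNAs looked up here included negative and positive values. MCM7, which holds miR-93, miR-106b and miR-25 in the right part of chromosome 7, was not called (-0.13 ± 0.08, 623 to 568 CPM), below the right-part median of 0.49. MIR17HG, the host of the miR-17 cluster on chromosome 13, was at -0.54. Other hosts outside chromosome 7 were DLEU2 (-0.78), MIR200CHG (-0.75), MIR29B2CHG (-0.73), SMC4 (-0.31), MIR100HG (-0.04), MIRLET7BHG (0.08) and VMP1 (0.73), so larger changes were mostly falls. MEST, host of miR-335 and also in the right part, fell by 0.31 ± 0.09, and LINC-PINT, host of a miR-29b copy there, was at 0.59. The RefSeq table lists 68 hairpins on chromosome 7, of which 23 lie in the left part and 41 in the right.

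Rises outnumbered falls in the lists of matrix and adhesion genes, to be read against 23.2% higher and 21.2% lower over all genes. Of 27 measured collagens and laminins 17 rose and 0 fell (median 0.46). Besides LAMA4 and COL17A1, the basement membrane collagens COL4A6 and COL4A5 rose by 2.02 ± 0.21 and 1.5 ± 0.11, the laminin chains LAMB1 by 1.47 ± 0.07 and LAMC1 by 0.92 ± 0.09 (121 to 228 CPM), and perlecan HSPG2 by 1.28. LAMB1 is on chromosome 7, and without it 16 of 26 rose. Of 22 genes of matrix crosslinking and proteolysis 13 rose and 1 fell (median 0.33), with the plasminogen activator PLAU up by 1.39 ± 0.09 (30.5 to 80 CPM), its receptor PLAUR by 1.11 ± 0.11 and LOXL2 by 1.20, and LOXL3 down by 1.08 ± 0.14. Among 13 integrins 8 rose and 4 fell (median 0.26). ITGB4, which binds laminin in hemidesmosomes, rose by 1.96 ± 0.17 (30.9 to 120 CPM) and ITGB1, the common beta subunit, by 0.72 ± 0.08 (507 to 838 CPM). ITGB8, on the left part of chromosome 7, fell by 1.81 ± 0.14.

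Guidance and growth factor genes followed, to be read against 23.2% higher and 21.2% lower over all genes. Of 23 semaphorins, plexins, neuropilins and VEGF genes 10 rose and 2 fell (median 0.23), and outside chromosome 7 they were 8 and 2 of 20. NRP2, the second neuropilin, rose by 1.75 ± 0.18 (1.06 to 3.57 CPM), SEMA3B by 1.48 and SEMA6A by 1.08, and VEGFA fell by 0.38 ± 0.08. Among 13 ephrins and EPH receptors 3 rose and 3 fell (median -0.13), shares near those over all genes, EFNB2 (0.57 ± 0.09) and EFNA4 (-0.63 ± 0.12) among them. Receptor tyrosine kinases and ERBB ligands rose in 10 of 22 and fell in 1 (median 0.20), with HBEGF up by 1.13 ± 0.11 and AXL by 0.82 ± 0.09. Without EGFR and MET, on chromosome 7, they were 8 and 1 of 20 (median 0.15). Genes of TGF-beta and BMP signalling rose in 19 of 31 and fell in 2 (median 0.45). The ligands TGFB2, BMP2 and TGFA rose by 2.08 ± 0.25, 1.72 and 1.26 ± 0.07 (43.1 to 103 CPM for TGFA), and the receptors BMPR2 and TGFBR2 by 1.02 ± 0.09 and 0.53 ± 0.09. Of 19 feedback genes of the MAP kinase pathway 9 rose and 4 fell (median 0.37): the phosphatase DUSP4 rose by 1.09 ± 0.07 (77.1 to 165 CPM) while DUSP6 fell by 0.77 ± 0.08 (293 to 172 CPM).

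Epithelial genes included rises and falls, to be read against 23.2% higher and 21.2% lower over all genes. Of 24 tight and adherens junction genes 3 rose and 8 fell (median -0.13), and outside chromosome 7 they were 1 and 8 of 20 (median -0.18). E-cadherin CDH1 fell by 0.97 ± 0.08 (49.1 to 25 CPM), CLDN7 by 1.13 ± 0.11 (84.1 to 38.4 CPM), MARVELD3 by 1.14 ± 0.10 and EPCAM by 0.58 ± 0.07 (391 to 261 CPM). Epithelial transcription and splicing factors rose in 5 of 16 and fell in 5 (median -0.06), shares not far from those over all genes: with GRHL2, the splicing factor ESRP1 fell by 1.06 ± 0.10 (195 to 93.1 CPM) and OVOL1 by 1.55 ± 0.21, but EHF rose by 2.27 ± 0.15 (1.32 to 6.38 CPM) and KLF5 by 0.75. Keratins and desmosome genes rose in 6 of 18 and fell in 3 (median 0.05), with KRT15 at 1.13 ± 0.16, DSC3 at 1.04 ± 0.10 and PKP3 at -0.79 ± 0.23. Of 7 measured genes of a mesenchymal list of 16, 5 rose and 2 fell (median 0.42): vimentin VIM rose by 2.54 ± 0.17 (2.40 to 13.9 CPM), and ZEB1, SNAI1, FN1 and FOXC1 rose too, while S100A4 fell by 0.46 and TWIST1 was near 0 in the knockout. Actin cytoskeleton genes rose in 16 of 30 and fell in 4 (median 0.24), with vinculin VCL up by 0.81 ± 0.07 (186 to 325 CPM) and moesin MSN by 0.78 ± 0.09. Mucin-type glycosylation genes rose in 7 of 16 and fell in 3 (median 0.04), and GALNT5 rose by 1.10 ± 0.11 where GALNT3 fell.

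Marker lists were read as a check of the line, beside 23.2% higher and 21.2% lower over all genes. Of 12 colorectal epithelial line markers 10 were measured, of which 1 rose and 3 fell, and their summed level was 3536 CPM in parental and 3127 CPM in the knockout. None of 12 blood markers was in the table (0 of 12), 1 of 10 endothelial markers was, and it was not called. Core genes of other lists, such as PRPF8 of the spliceosome, PSMB3 of the proteasome and SMARCB1, were not in the table either. Absence from it therefore does not show that a gene was not expressed. Of 12 fibroblast markers 3 were measured, with 2 higher and 1 lower, including ACTA2 (1.41 ± 0.17, 1.86 to 4.95 CPM). Their summed level was 5.88 CPM in parental and 9.15 CPM in the knockout, the collagens COL1A2 and COL3A1 and the fibroblast markers DCN, LUM and THY1 were not in the table, and their part in the rises of matrix genes was not tested. Of 14 neural and embryonic kidney markers 7 were measured, 3 higher and 1 lower, among them PAX6 (-1.43 ± 0.20) and NES (0.60 ± 0.10), with a summed level of 45.4 CPM in parental and 57.7 CPM in the knockout. From 29 neuronal channels and receptors 11 were measured, 6 higher and 3 lower (median 0.97). GRIN2B was 1 of the falls, by 1.88 ± 0.12 (32.9 to 8.92 CPM), and the summed level was 73.5 CPM in parental and 61.8 CPM in the knockout. In bulk RNA a smaller share of cells of 1 kind and less RNA per cell cannot be told apart. Of 25 intestinal differentiation markers only CA2 was measured, and it was not called (0.17). Among 12 measured intestinal stem cell and WNT feedback genes 3 rose and 2 fell (median 0.04). These shares, 25% and 16.7%, were not far from those over all genes. Cyclin D1 CCND1 rose by 0.90 ± 0.09 (370 to 689 CPM).

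**Figure D5:**
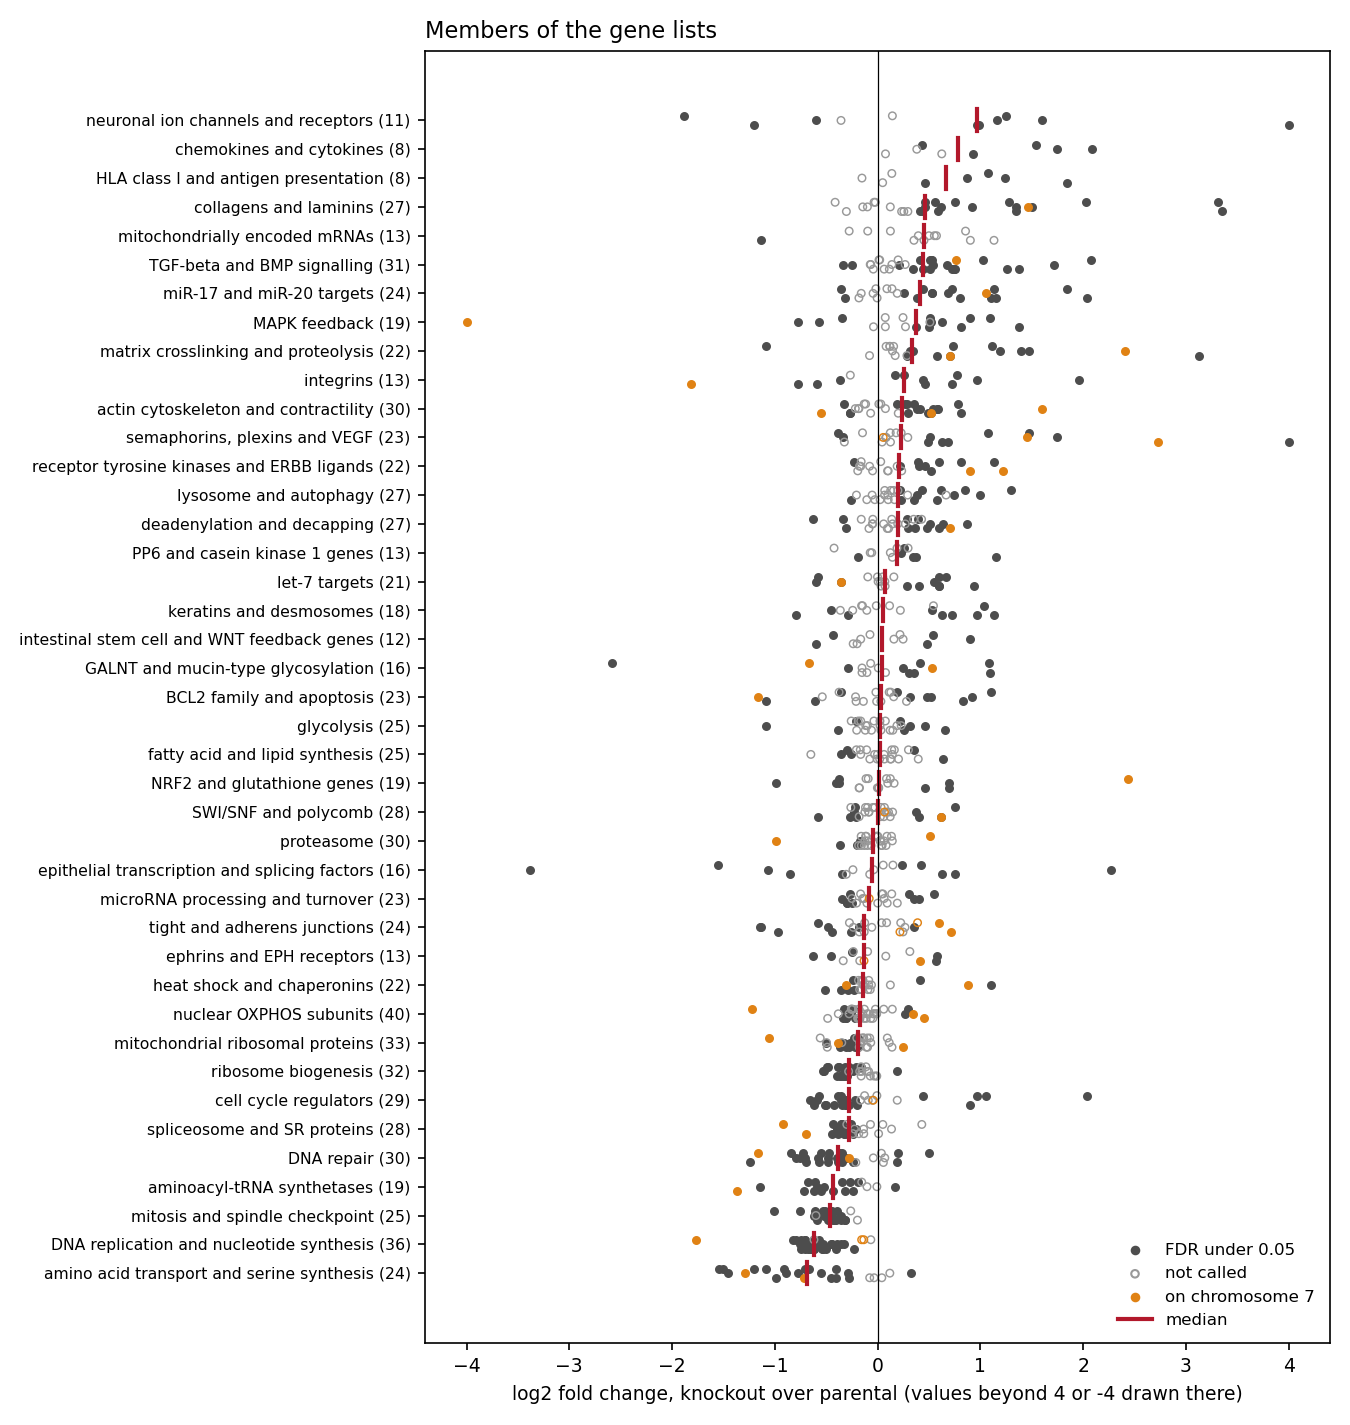
Deposited log2 fold change of knockout over parental (x axis) for each measured member of the larger gene lists (y axis, with the number measured). Points are filled where the FDR is under 0.05, open where not called and orange on chromosome 7, and the bar is the list median. Marker lists and lists with few measured genes are not drawn, and the most extreme values are drawn at the limit named on the axis. Lists of amino acid transport, DNA replication and mitosis lie low (-0.69, -0.62 and -0.46), and collagens and laminins (0.46) lie among the highest.

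Genes of cell division fell together, by modest amounts, to be read against 21.2% lower and 23.2% higher over all genes. Of 36 genes of DNA replication and nucleotide synthesis 32 fell and 0 rose (median -0.62), and outside chromosome 7 they were 31 and 0 of 33. The origin protein ORC1 fell by 0.80 ± 0.07, the flap nuclease FEN1 by 0.74 ± 0.07 (270 to 162 CPM) and the helicase subunit MCM4 by 0.71 (726 to 444 CPM). The 4 not called were TYMS (-0.07), POLD1 (-0.62), MCM7 (-0.13) and RFC2 (-0.15). Of 25 mitotic genes 22 fell and 0 rose (median -0.46), with the kinetochore protein NDC80 down by 1.0 ± 0.08 (108 to 53.7 CPM) and survivin BIRC5 by 0.76 ± 0.08, while PLK1 (-0.26) was not called. Cell cycle regulators fell in 17 of 29 and rose in 5 (median -0.28). CDK1 fell by 0.65 ± 0.10 (290 to 185 CPM), and CDKN1A, CCND1, CDC25B (1.06) and CDKN2B (0.97) were among the rises. DNA repair genes fell in 22 of 30 and rose in 3 (median -0.39), with the mismatch repair gene MSH6 down by 1.24 ± 0.09 (417 to 177 CPM) and PMS2, on the left part of chromosome 7, by 1.16. Of 28 spliceosome and SR protein genes 17 fell and 0 rose (median -0.28), SRSF1 by 0.45 ± 0.09.

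Amino acid supply had the lowest list median when chromosome 7 genes were counted. Over all genes, 21.2% were lower and 23.2% higher. Of 24 genes of amino acid transport and serine synthesis 19 fell and 1 rose (median -0.69). Without the chromosome 7 genes ASNS and PSPH 17 of 22 fell, and the median was -0.61, beside -0.62 for DNA replication outside chromosome 7. PSAT1, the second enzyme of serine synthesis, fell by 1.20 ± 0.10 (259 to 113 CPM), GPT2, an alanine transaminase, by 1.51 ± 0.10, and the cystine transporter SLC7A11 by 0.99 ± 0.11. CTH rose by 0.32. Aminoacyl-tRNA synthetases, which charge transfer RNAs, fell in 15 of 19 and rose in 1 (median -0.44): YARS1 fell by 0.71 ± 0.07, WARS1 by 0.67 and GARS1, on the left part of chromosome 7, by 1.36. Ribosome biogenesis genes fell in 19 of 32 and rose in 1 (median -0.28), with NPM1 down by 0.50 ± 0.11 and FBL by 0.49 ± 0.07.

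Lists of other metabolism and protein upkeep are set here against the shares over all genes, 23.2% higher and 21.2% lower. Glycolysis genes rose in 5 of 25 and fell in 3 (median 0.02), with PKM up by 0.32 ± 0.09 and the glucose transporter SLC2A1 down by 0.38 ± 0.10. Fatty acid and lipid synthesis genes rose in 2 of 25 and fell in 3 (median 0.02). Nuclear subunits of oxidative phosphorylation rose in 4 of 40 and fell in 8 (median -0.18), and mitochondrial ribosomal proteins rose in 1 of 33 and fell in 13 (median -0.20). The 13 mitochondrially encoded messenger RNAs had a median of 0.45, with 0 higher and 1 lower. Proteasome genes rose in 1 of 30 and fell in 5 (median -0.04), and the only rise, PSMC2, and the largest fall, PSMA2 (-0.99), are both on chromosome 7. Heat shock and chaperonin genes rose in 3 of 22 and fell in 6 (median -0.14), and those of SWI/SNF and polycomb complexes rose in 5 of 28 and fell in 5 (median 0.00). NRF2 and glutathione genes rose in 4 of 19 and fell in 4 (median 0.01). Of 6 metallothioneins 1 rose and 3 fell (median -0.47), MT1E by 0.85 ± 0.17. At an FDR under 0.01 the falls were 1 for metallothioneins, 8 for mitochondrial ribosomal proteins, 3 for the proteasome and 2 for SWI/SNF and polycomb, and the rises for glycolysis were 3.

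Lysosome and autophagy genes rose in 11 of 27 and fell in 1 (median 0.20), with the autophagosome protein MAP1LC3B up by 0.99 ± 0.08 (39.1 to 77.9 CPM) and its receptor SQSTM1 by 0.58 ± 0.10 (278 to 416 CPM). Of 8 measured genes of antigen processing and presentation, from a list of 18, 5 rose and 0 fell (median 0.66). They were the trimming peptidases ERAP2 (1.85 ± 0.13) and ERAP1 (1.08 ± 0.15), the regulator NLRC5 (1.24 ± 0.13), PSMB10 (0.87) and B2M (0.46). Among 8 measured chemokines and cytokines 5 rose and 0 fell (median 0.78): IL18 rose by 1.54 ± 0.08 (49.5 to 144 CPM), and CXCL8 by 2.09 ± 0.29 from a low level (0.426 to 1.81 CPM). BCL2 family genes rose in 7 of 23 and fell in 4 (median 0.03), or 30.4% and 17.4%, beside 23.2% and 21.2% over all genes. The death-promoting BCL2L11 and PMAIP1 rose by 1.10 ± 0.11 and 0.92 ± 0.12, and the protective BCL2 fell by 1.09 ± 0.12.

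The FH-WT line, knockout cells with tagged wild-type AGO2 added, was compared with the same 3 parental libraries in another of the authors' deposited tables, so the 2 sets of values share their controls and are only set side by side. AGO2 was at 0.40 there and at -0.35 in the knockout. NRP1 was at 5.25 (5.46 in the knockout), GRHL2 at -3.86 (-3.38), ZEB1 at 2.15 (2.0), VIM at 2.63 (2.54) and SEMA3C at 2.44 (2.73). Other values lay further apart: CDH1 was at -1.64 (-0.97), PHGDH at -0.89 (-1.46), ITGB8 at -3.43 (-1.81), EHF at 0.27 (2.27), TGFBR2 at -0.01 (0.53) and MT2A at 0.68 (-0.81). In the 10 Mb bins of chromosome 7 the FH-WT medians ran from -1.03 to -0.59 up to 50 Mb and from 0.40 to 0.73 beyond 70 Mb.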

How the data were processed

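Values came from the authors' deposited tables, 5 in all, 1 for each comparison of 2 groups. Per the file headers, the columns hold, gene by gene, a log2 fold change, a mean log2 CPM, the score of a likelihood ratio test, its p-value and the FDR. Per the submitters' processing notes the tools were edgeR 3.8.6, featureCounts 1.4.6, TopHat2 2.0.12 and Cufflinks 2.2.1, on GRCh38 (hg38). Not given in the sources used here were the annotation, filter, scaling and strand setting. Each deposited p-value matched the chi-square tail of the score with 1 degree of freedom to 6.44e-15. With no values per library, the authors' deposited test replaced any test of counts, and depth per library is unknown.

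From these values the SE was computed as the absolute log2 fold change over the square root of the score. CPM per line was fitted from the mean log2 CPM and the fold changes of the tables. Of 15074 genes, 14974 matched a symbol and 15029 were placed by GENCODE 29, leaving 45 unplaced. Left and right on chromosome 7 mean up to 50 Mb and beyond 70 Mb. Seed matches were counted in the 3′ UTR of 1 transcript per gene. Tools were Python 3.11.15, pandas 2.3.3, NumPy 2.4.6, SciPy 1.17.1 and Matplotlib 3.10.9, and the scripts were tested on simulated data.

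The members, the limits on chromosome 7 and the 50 gene lists (1191 entries) were chosen with earlier results of these data known. Genes were named by rule: AGO2, the 12 rises and 12 falls of highest score outside chromosome 7 (called, at least 2-fold, mean log2 CPM of at least 1), the 8 rises and 8 falls largest in CPM outside chromosome 7 and the mitochondrial genome, 6 and 3 genes per direction and part of chromosome 7, those next to its change of sign, and up to 4 members per list. Some genes that meet the rule are not reported here. Further members, the coding genes along the middle of chromosome 7, the abundant genes of each part and those set beside FH-WT were chosen after their values were seen. Alternatives were stricter and looser FDR limits, Bonferroni adjustment, filters on mean expression, gene type, chromosome 7 left out, other limits on that chromosome, and centring.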

Additional observations from a re-analysis of the deposited data

How the results depend on the processing

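No paired analysis was possible because the deposited tables hold no values per library, so a fit with the replicate number as a block and fits leaving out 1 replicate were not run. With Bonferroni adjustment in place of the FDR, 1431 genes were higher and 1004 lower, against 3499 and 3196. Among genes with a mean log2 CPM of at least 3, 297 changed at least 2-fold, against 699 in all. The other counts over all genes stayed within 1.5 times the reported ones under every alternative run. The left median of chromosome 7 stayed between -0.83 and -0.96 and the right one between 0.46 and 0.52. Of the 98 counts for the gene lists, 17 moved by over 1.5 times at an FDR under 0.01, 6 without chromosome 7 and 2 with centring on genes outside it. Beside those in the report, at an FDR under 0.01 microRNA processing had 3 falls, TGF-beta and BMP signalling 1, semaphorins 1, DNA repair 1 rise and fibroblast markers 1. Under that limit the single fall or rise of the phosphatase 6, lysosome, receptor kinase, mitochondrial messenger RNA, tRNA synthetase, ribosome biogenesis and mitochondrial ribosome lists became 0. Within 5 classes of 3′ UTR length, chosen after seeing the data, the difference turned negative for miR-10 (-0.0069), miR-194 (-0.00017) and miR-208 (-0.0045). The value for miR-208 rests on 3 classes, as those with few matching genes were left out, and the cause was not tested. Depth limits low genes most: the median SE was 0.25 under a mean of 1 log2 CPM and 0.08 at 7 or more.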
